A study of Mus musculus with 262 samples.

Results

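Kidney cells of 2-month-old male mice of the strain Atp6v1b1GFP were sorted by their GFP fluorescence, and polyA RNA of the GFP-positive cells was compared with that of the GFP-negative cells. The comparison used 4 of the 262 samples of the series, chosen by the 4 GFP columns of the deposited table of raw counts: GFP-positive replicates 1 and 2, and GFP-negative replicates 1 and 2. All 4 carried the same strain name, so the GFP-negative samples were the other cells of reporter kidneys and not cells of wild-type mice. No treatment was named for either group. The labels give the strain by name only: what drives GFP, how many animals went into a sort and whether animals were pooled are not stated there. The remaining samples of the series were 235 single cells of C57BL/6 mice, 4 other sorted bulk samples and 19 microdissected tubules, and the single cells and tubules enter at the end as separate tables.

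Between 35530885 and 40815091 reads per sample fell in 1 of 24111 genes, and 17421 to 17735 genes had a read. Levels are given as CPM, counts scaled to a common library total after adjustment of the libraries to each other by the trimmed mean of M-values (TMM). Differences are log2 differences, GFP-positive minus GFP-negative, with their standard error after the sign ±, from edgeR's quasi-likelihood test on 2 against 2 samples. A gene is called when its p-value, adjusted over all 15671 genes tested by the Benjamini-Hochberg method, lay under 0.05. Nothing in the labels says that replicates were separate animals, so the p-values measure the spread between these samples, which may be technical. Each sample was also left out in turn. Such a fit has 1 sample in a group and less power, and called fewer genes in all. A call lost there can reflect that loss of power, and the difference given beside it shows whether the estimate moved.

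The B1 subunit of the vacuolar proton pump, encoded by Atp6v1b1, is the isoform used by intercalated cells, the acid-base transporting cells of the connecting tubule and collecting duct. Type A intercalated cells place the pump in the apical membrane and secrete acid, and type B cells secrete bicarbonate through the chloride-bicarbonate exchanger pendrin, the product of Slc26a4. Principal cells, their neighbours, take up sodium and water under the control of aldosterone and vasopressin. Proximal tubule cells reabsorb most of the filtrate and make up much of the mass of the kidney cortex. Over the genes tested, 32.6% were called: 2386 (15.2%) were higher and 2715 (17.3%) lower in GFP-positive cells. The counts of every gene list are to be read against these 2 shares.

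The labels were checked against Atp6v1b1 and against lists of defining markers. Atp6v1b1, on chromosome 6 from 83743017 to 83758855 (GRCm38), had 15.0 and 11.4 CPM in the GFP-negative and 380.1 and 448 CPM in the GFP-positive samples. Both GFP-positive samples lay far above both GFP-negative samples, and the log2 difference was 4.97 ± 0.23 (adjusted p 2.77e-05, edgeR). All 15 markers of intercalated cells were called higher, 5 of type A cells, 4 of type B cells and 6 shared by both, against 15.2% of all genes tested. Atp6v1b1 is 1 of the 15, and the lists were chosen with earlier results of these data known, so this count is no independent check. The GFP-positive samples were not only intercalated cells by these lists: 7 of 8 principal cell markers were also called higher. Of the 5 thick ascending limb markers 1 rose (Cldn16, 1.29), 1 fell (Cldn10, -1.26) and 3 were not called, among them Slc12a1 (0.56) and Umod (0.57), or 2 were higher with DESeq2 and with GFP-positive replicate 2 left out. Their sum, nearly all of it Umod and Slc12a1, was 14800.0 and 9882 CPM in the GFP-positive and 8330.0 and 8641 CPM in the GFP-negative samples. All 7 proximal tubule markers were called lower, but their sum was still 3065 and 1953 CPM in the GFP-positive samples, against 15980.0 and 16400.0 CPM. In such bulk samples fewer cells of a type and less RNA per cell cannot be told apart.

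The replicates of each group differed in composition. The type A markers summed to 5704 CPM in GFP-positive replicate 1 and to 11330.0 CPM in replicate 2, while the type B markers summed to 2368 and 1665 CPM. Markers of macrophages and dendritic cells summed to 838 CPM in GFP-negative replicate 1 and to 337 CPM in replicate 2, and endothelial genes to 939.8 and 394 CPM. Distal convoluted tubule genes summed to 8436 and 6409 CPM in the GFP-positive replicates 1 and 2. GFP-positive replicate 1 thus held more of the type B, distal convoluted tubule and thick ascending limb lists and replicate 2 more of the type A and principal cell lists, and GFP-negative replicate 1 held more non-epithelial RNA. The part of these shifts in the differences between the groups was not tested beyond leaving out each sample in turn.

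Outside the marker lists, the 15 genes with the largest rise in GFP-positive cells were genes of transport, receptors and vesicle traffic together with less studied genes. Klkb1, which encodes plasma prekallikrein and lies on chromosome 8 from 45266688 to 45294835, had 0.539 and 0.146 CPM in the GFP-negative and 61.9 and 39.4 CPM in the GFP-positive samples. Its log2 difference was 7.14 ± 0.51 (adjusted p 4.78e-05, edgeR), and it was 8.40 without GFP-negative replicate 1 and 6.55 without GFP-negative replicate 2. Rhbg, an ammonia transporter of the Rhesus family on chromosome 3 from 88242874 to 88254739, had 1.62 and 1.35 CPM in the GFP-negative and 129 and 195 CPM in the GFP-positive samples (log2 difference 6.76 ± 0.30, adjusted p 2.41e-05, edgeR). Neither gene reached 2 CPM in a GFP-negative sample, and the groups did not overlap. The set also held 2 receptors and an adhesion protein. Avpr1a, the V1a vasopressin receptor, had 4.76 and 2.63 CPM in the GFP-negative and 263 and 319 CPM in the GFP-positive samples (6.29 ± 0.32). Oxgr1, a receptor for 2-oxoglutarate, had 6.79 and 4.97 CPM in the GFP-negative and 384 and 302 CPM in the GFP-positive samples (5.86 ± 0.26). Hepacam2, an adhesion protein of the immunoglobulin family, had 5.51 and 3.89 CPM in the GFP-negative and 233 and 335 CPM in the GFP-positive samples (5.91 ± 0.29). For these 3 genes the GFP-positive samples were within 1.5 times of each other, and the groups stood far apart.

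The same set of 15 included Tldc2, whose TLDc domain is shared with regulators of the proton pump, with 0.703 and 0.439 CPM in the GFP-negative and 50.5 and 33.5 CPM in the GFP-positive samples (6.17 ± 0.38). Slc26a7, an anion exchanger, had 3.77 and 4.04 CPM in the GFP-negative and 132 and 385 CPM in the GFP-positive samples, so replicate 2 was the higher GFP-positive sample, as for the type A markers, and its difference of 6.05 ± 0.51 was 5.08 without GFP-positive replicate 2. Pga5, a pepsinogen, had 0.469 and 0.205 CPM in the GFP-negative and 24.4 and 66.0 CPM in the GFP-positive samples (7.02 ± 0.61), and gave 7.76 without GFP-negative replicate 1 and 6.14 without GFP-positive replicate 2. Cpsf4l (5.69 ± 0.38) had 1.22 and 1.02 CPM in the GFP-negative and 40.8 and 75.7 CPM in the GFP-positive samples. The predicted gene Gm9871 (6.61 ± 0.42) had 0.305 and 0.322 CPM in the GFP-negative and 22.8 and 38.8 CPM in the GFP-positive samples. Replicate 2 was the higher GFP-positive sample for both. Clnk (6.16), Asb15 (5.87) and Wscd2 (5.61) were 6.85, 6.66 and 6.34 without GFP-negative replicate 1, 4930563D23Rik (6.28) was 7.90 without it and 5.62 without GFP-negative replicate 2, and Serpinb9 (5.51) was 4.91 without GFP-positive replicate 2. In the single cells the 15 genes did not share 1 cell type: over type A, type B and principal cells, in that order, the mean TPM (the authors' length-scaled share of transcripts) of Tldc2 was 7.32, 327 and 0.0158, that of Clnk 63.5, 0.0474 and 6.01, and that of Rhbg 452, 346 and 232. Tldc2 was thus highest in the type B cells and Clnk in the type A cells, and Rhbg was also present in principal cells.

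At the other end, the 15 genes with the largest fall were of 2 kinds. Ftcd, an enzyme of histidine breakdown, had 33.2 and 42.7 CPM in the GFP-negative and 2.66 and 2.27 CPM in the GFP-positive samples (-3.94 ± 0.28, adjusted p 4.78e-05, edgeR). Spink3, a serine protease inhibitor, had 504 and 489 CPM in the GFP-negative and 33.5 and 33.1 CPM in the GFP-positive samples (-3.90 ± 0.18). BC024386 had 171 and 238 CPM in the GFP-negative and 14.6 and 12.7 CPM in the GFP-positive samples (-3.90 ± 0.23). In these genes, as in Serpina1a (-3.78) and the anion transporter gene Slc22a19 (-3.80), both GFP-negative samples were high and the groups stood far apart. Serpina1a belongs to a family of near-identical copies, among which reads may have been split. The second kind was high in GFP-negative replicate 1 above all. Ccl4, a chemokine, had 66.6 and 17.0 CPM in the GFP-negative and 1.18 and 1.61 CPM in the GFP-positive samples (-4.90 ± 0.63), and Il1b, the cytokine interleukin 1 beta, had 309 and 98.7 CPM in the GFP-negative and 13.6 and 12.2 CPM in the GFP-positive samples (-3.98 ± 0.48). When GFP-negative replicate 1 was left out, Ccl4 was -3.60, Ccl3 -3.40 in place of -4.86, Il1b -2.94, Cybb -3.00 in place of -4.19, Rgs1 -2.38 in place of -3.91, Fcer1g -2.80 in place of -3.90, H2-Aa -3.00 in place of -3.78 and H2-Ea-ps -2.29 in place of -3.89. Without GFP-negative replicate 2, Ccl4 and Ccl3 were both -5.57, Il1b -4.57, Cybb -4.82, Rgs1 -4.63, Fcer1g -4.51, H2-Ea-ps -4.62, Havcr1 -3.21 in place of -3.80 and Serpina1f -3.05 in place of -3.81. Fcer1g was -4.72 without GFP-positive replicate 2, and the genes named here were each still called by edgeR in all 4 of these fits. Macrophage and dendritic cell genes summed to 52.2 and 66.7 CPM in the GFP-positive samples, against 838 and 337 CPM in the GFP-negative samples, and their part in the fall of the immune genes was not tested.

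**Figure D1:**
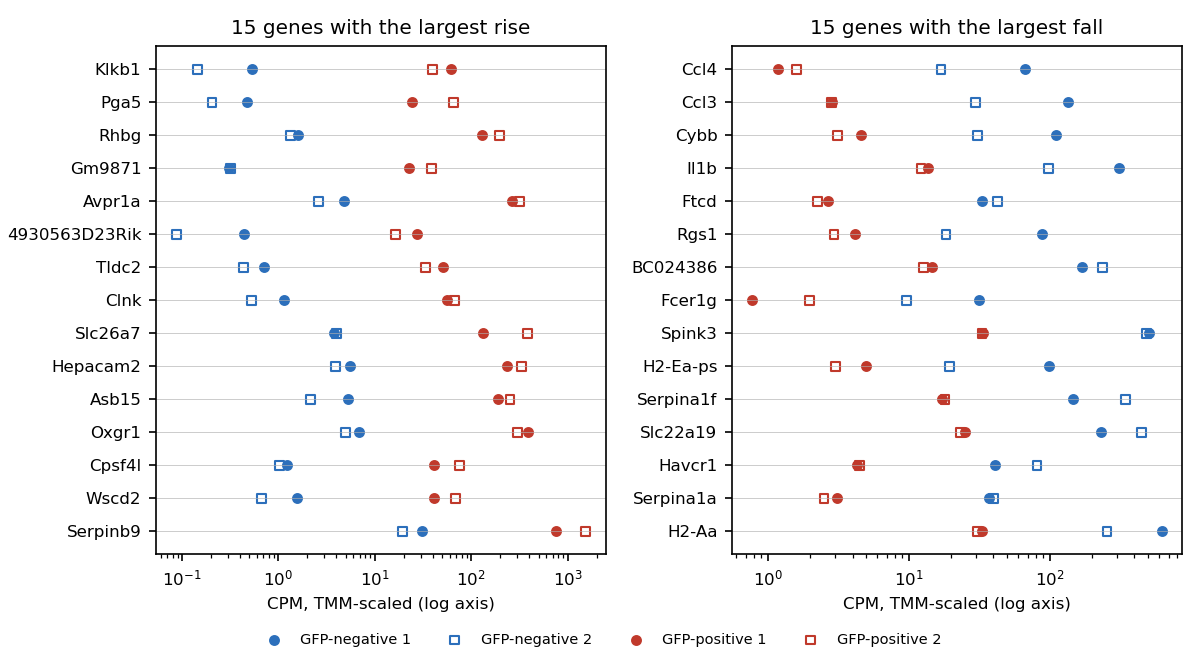
Levels in CPM (log axis) of the 15 genes with the largest rise (left) and the 15 with the largest fall (right) in each of the 4 samples; circles are replicate 1, open squares replicate 2, blue GFP-negative and red GFP-positive. The groups do not overlap in any of the 30 genes, and in the chemokine and immune genes on the right GFP-negative replicate 1 lies above replicate 2.

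The forkhead factor gene Foxi1 is a shared intercalated cell marker (6.90; 6.25 without GFP-positive replicate 2), so the promoters of the genes with the largest rise were searched for the forkhead core GTAAACA on both strands (reverse complement TGTTTAC). The window ran from 250 bases before to 50 bases after the gene start in RefSeq (GRCm38.p6). The core was present for 2 of the 10 genes of the 15 largest rises with an entry, Klkb1 and Cpsf4l, and for 1 of the 9 intercalated cell markers with an entry, Atp6v1b1. The 250 bases before these 3 starts are shown 5′ to 3′ on the strand of the gene, with the core in capitals, to show where it lies.
Klkb1, chr8:45294836-45295085, minus strand: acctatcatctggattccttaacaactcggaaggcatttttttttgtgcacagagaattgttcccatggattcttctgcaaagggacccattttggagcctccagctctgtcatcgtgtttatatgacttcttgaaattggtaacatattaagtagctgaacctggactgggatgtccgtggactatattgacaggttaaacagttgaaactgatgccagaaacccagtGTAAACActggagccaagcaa
Cpsf4l, chr11:113710018-113710267, minus strand: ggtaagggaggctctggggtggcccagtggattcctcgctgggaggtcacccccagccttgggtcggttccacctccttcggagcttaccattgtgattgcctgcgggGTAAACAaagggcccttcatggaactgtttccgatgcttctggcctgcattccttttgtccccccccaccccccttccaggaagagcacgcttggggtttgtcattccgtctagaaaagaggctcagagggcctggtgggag
Atp6v1b1, chr6:83742767-83743016, plus strand: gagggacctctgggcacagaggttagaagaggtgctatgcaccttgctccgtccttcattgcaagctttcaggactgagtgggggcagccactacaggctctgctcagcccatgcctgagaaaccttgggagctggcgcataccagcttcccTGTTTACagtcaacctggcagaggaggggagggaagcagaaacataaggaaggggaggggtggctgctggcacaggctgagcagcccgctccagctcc
The core began 21 bases before the start of Klkb1, 142 bases before the more upstream of the 2 listed starts of Cpsf4l and 98 bases before that of Atp6v1b1, where it is read on the opposite strand. Over all genes with an entry, 3.14% of those called higher, 3.63% of those called lower, 3.35% of those tested and 4.05% of all genes of the table held the core. A match is a description of the letters in the window only.

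Proximal tubule genes were lower in GFP-positive cells along the whole of that segment. Of 20 genes of its early S1 and S2 parts, 19 fell and 1 rose (median -2.19), and all 14 genes of its late S3 part fell (median -3.29), against 17.3% of all genes tested called lower. Slc22a2, an organic cation transporter, had 698 and 816 CPM in the GFP-negative and 84.2 and 81.5 CPM in the GFP-positive samples (-3.19 ± 0.19, adjusted p 4.31e-05, edgeR). Kap, the androgen-regulated kidney protein of the late segment, had 6539 and 9551 CPM in the GFP-negative and 555 and 654 CPM in the GFP-positive samples (-3.73 ± 0.29). Cyp7b1, an oxysterol hydroxylase, had 499 and 855 CPM in the GFP-negative and 53.4 and 50.6 CPM in the GFP-positive samples (-3.70 ± 0.28). The GFP-positive samples of these genes were nearly equal, and both lay below both GFP-negative samples. The exception was Slc7a8, a neutral amino acid exchanger of the basolateral membrane, which rose from 59.3 and 49.7 to 119 and 112 CPM (1.09 ± 0.18).

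The endocytic machinery that the proximal tubule uses to take up filtered protein was lower in part. Its 2 central receptors, megalin (Lrp2, -2.73) and cubilin (Cubn, -3.02), fell and are counted with the proximal tubule markers. Of 10 other such genes, 5 fell, 2 rose and 3 were not called (median -0.73). Amn, the partner of cubilin, had 22.5 and 28.0 CPM in the GFP-negative and 3.57 and 3.17 CPM in the GFP-positive samples (-2.91 ± 0.28), and Lrpap1, a chaperone of megalin, had 246 and 259.5 CPM in the GFP-negative and 85.7 and 67.6 CPM in the GFP-positive samples (-1.72 ± 0.19). Tmigd1 also fell (-3.52 ± 0.23), as did Inpp5b (-1.27 ± 0.17) and Ehd1 (-1.23 ± 0.23). Other members were not called: Myo6, a motor, had 625 and 662 CPM in the GFP-negative and 688 and 662 CPM in the GFP-positive samples (0.07 ± 0.18), and Clcn5, the endosomal chloride-proton exchanger, had 214 and 222 CPM in the GFP-negative and 246 and 204 CPM in the GFP-positive samples (0.05 ± 0.17). Dab2, an adaptor, was not called either (-0.23 ± 0.19). The calls of Gipc1 (1.08) and Ocrl (0.69) were lost without GFP-positive replicate 2 (0.98) and without either GFP-negative replicate (0.70 and 0.68) or GFP-positive replicate 1 (0.64), respectively.

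Thin limb genes were lower or not called in the main fit: 4 of 8 fell and 4 were not called (median -1.23). With library totals only and with the replicate block, 1 was called higher. Aqp1, the water channel of proximal tubule and thin descending limb, had 706 and 907 CPM in the GFP-negative and 183 and 147 CPM in the GFP-positive samples (-2.29 ± 0.22), and Bst1 also fell (-1.50 ± 0.24). The urea transporter gene Slc14a2 (-0.92) lost its call without GFP-negative replicate 2 (-0.61), and Corin (-1.08) without that sample (-1.07), without GFP-positive replicate 2 (-0.66) and with library totals only (-0.99), and stood at -1.68 without GFP-positive replicate 1. The number of thin limb genes called lower was then 2 without GFP-negative replicate 2.

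Genes of the thick ascending limb divided. Of 16 tested, 8 rose, 2 fell and 6 were not called (median 0.87), and 1 had too few reads. Bsnd, barttin, an accessory subunit of chloride channels, had 17.9 and 24.9 CPM in the GFP-negative and 113 and 122 CPM in the GFP-positive samples (2.46 ± 0.21). It is also a gene of intercalated cells, and the groups lay far apart. Egf, the epidermal growth factor precursor of the thick limb and distal convoluted tubule, had 1009 and 1078 CPM in the GFP-negative and 3107 and 1714 CPM in the GFP-positive samples (1.21 ± 0.29). The transcription factor gene Foxq1 rose too (2.08 ± 0.30). The 2 genes called lower were Irx1 (-0.83) and Wfdc15b (-0.57), and neither was called with library totals only (-0.72 and -0.49). They were -0.46 and -0.58 without GFP-negative replicate 2, and -0.87 and -0.52 without GFP-positive replicate 1. Wfdc15b was -0.56 without GFP-negative replicate 1, and Irx1 was -0.81 without GFP-positive replicate 2.

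Distal convoluted tubule and connecting tubule genes were mostly higher in GFP-positive cells. Of 15 distal convoluted tubule genes, 10 rose, 1 fell and 4 were not called (median 1.80). Slc12a3, the thiazide-sensitive sodium-chloride cotransporter, had 124 and 104 CPM in the GFP-negative and 1273 and 712 CPM in the GFP-positive samples (3.12 ± 0.30, adjusted p 0.000121, edgeR). Calb1, the cytosolic calcium-binding protein calbindin, had 19.1 and 13.2 CPM in the GFP-negative and 425 and 396 CPM in the GFP-positive samples (4.67 ± 0.24), and Tmem52b had 123 and 115 CPM in the GFP-negative and 1082 and 888 CPM in the GFP-positive samples (3.05 ± 0.20). GFP-positive replicate 1 was the higher of the pair for all 3 of these genes, and no GFP-negative sample came near either. Wnk1, a kinase that controls the cotransporter, rose as well (1.94 ± 0.21). The single gene called lower was Fxyd2 (-0.75), a subunit of the sodium pump, which lost its call without replicate 2 of either group (-0.53 with the GFP-negative and -0.67 with the GFP-positive sample left out).

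Connecting tubule genes, mostly of calcium transport but with Klk1, Vdr and Pth1r among them, rose by more. Of 9 genes, 6 rose, 1 fell and 2 were not called (median 2.91). Trpv5, the apical calcium entry channel, had 1.94 and 1.05 CPM in the GFP-negative and 75.3 and 59.3 CPM in the GFP-positive samples (5.47 ± 0.34, adjusted p 4.31e-05, edgeR). Slc8a1, the basolateral sodium-calcium exchanger, had 54.5 and 32.8 CPM in the GFP-negative and 1883 and 1435 CPM in the GFP-positive samples (5.25 ± 0.32). S100g, the small calcium buffer calbindin-D9k, had 30.2 and 29.1 CPM in the GFP-negative and 516 and 932 CPM in the GFP-positive samples (4.61 ± 0.31), and entry, buffering and exit of calcium were thus each represented by a gene that rose in both GFP-positive samples. Atp2b4, a plasma membrane calcium pump, rose (2.90; 3.58 without GFP-negative replicate 1), whereas its relative Atp2b1 (0.36 ± 0.18) and the vitamin D receptor gene Vdr (0.08 ± 0.20) were not called. Trpv6 (1.75) was not called without GFP-positive replicate 1 (1.56). In the single cells of the series, where no distal convoluted tubule type is named, some genes of these 2 lists were higher in intercalated than in principal cells. Klk1, tissue kallikrein, averaged 14340.0 TPM in type B, 2318 in type A and 147 in principal cells, S100g 535, 427 and 362 TPM, and Wnk1 282, 434.5 and 188.5 TPM. Calb1 (20.9, 33.1 and 896 TPM) and Trpv5 (0, 0.0332 and 6.30 TPM) were highest in principal cells. Pth1r, the parathyroid hormone receptor, fell from 153 and 178 to 87.1 and 65.0 CPM (-1.12 ± 0.20).

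Principal cell genes beyond the classical markers rose in 12 of 19 cases, with 2 called lower and 5 not called (median 1.90), against 15.2% higher and 17.3% lower of all genes tested. Tfcp2l1, a transcription factor of the collecting duct, had 539 and 549 CPM in the GFP-negative and 4129 and 5414 CPM in the GFP-positive samples (3.13 ± 0.24). Scnn1a, the alpha subunit of the epithelial sodium channel, had 55.6 and 51.1 CPM in the GFP-negative and 494 and 457 CPM in the GFP-positive samples (3.16 ± 0.18, adjusted p 4.31e-05, edgeR). Mcoln3 had 6.51 and 8.13 CPM in the GFP-negative and 53.6 and 85.1 CPM in the GFP-positive samples (3.24 ± 0.29), and Gata3 11.6 and 7.46 CPM in the GFP-negative and 51.4 and 98.2 CPM in the GFP-positive samples (2.97 ± 0.35). GFP-positive replicate 2 was the higher of the pair for Tfcp2l1, Mcoln3 and Gata3, as it was for the sum of the principal cell markers (1205 and 2004 CPM), and the part of this in the rise was not tested. Not all of these genes were highest in principal cells of the single-cell data: the mean of Tfcp2l1 was 672 TPM there against 793 TPM in type A cells, and that of Scnn1a 31.1 TPM there against 34.5 TPM in type B cells, while Gata3 had 504 TPM there against 180.3 TPM in type A cells. Tsc22d3, a target of corticosteroid hormones, went the other way, from 31.8 and 31.3 to 8.65 and 13.2 CPM (-1.53 ± 0.27). Sgk1, the aldosterone-induced kinase (-0.75), lost its lower call without GFP-negative replicate 2 (-0.71), without GFP-positive replicate 1 (-0.48) and with library totals only (-0.67).

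Cells outside the tubule were fewer, or gave less RNA, in the GFP-positive fraction. Of 12 endothelial genes 10 fell (median -2.26), of 11 fibroblast and pericyte genes 9 fell (median -2.72), and of 15 macrophage and dendritic cell genes 14 fell (median -3.60), and 0 genes of the 3 lists were called higher by edgeR, by DESeq2 or at an unadjusted p under 0.05. Cdh5, the endothelial cadherin, had 58.1 and 42.1 CPM in the GFP-negative and 15.6 and 11.6 CPM in the GFP-positive samples (-1.88 ± 0.26). Dcn, the matrix protein decorin, had 42.6 and 33.0 CPM in the GFP-negative and 6.10 and 5.78 CPM in the GFP-positive samples (-2.67 ± 0.25). Col3a1, a collagen of fibroblasts, had 14.4 and 8.69 CPM in the GFP-negative and 1.29 and 1.40 CPM in the GFP-positive samples (-3.10 ± 0.41). Both GFP-negative samples lay above both GFP-positive samples in each. Smooth muscle genes did not share this: 0 of 6 tested were called by edgeR, against 1 at an unadjusted p under 0.05 and 1 with DESeq2 or with GFP-positive replicate 1 left out, with Acta2 at 11.2 and 19.7 and 14.2 and 12.8 CPM and Myh11 at 13.5 and 11.1 and 21.0 and 12.8 CPM. Podocyte genes were mixed, with Clic5 (-2.38 ± 0.21) called lower and Magi2 (0.71 ± 0.29) not called. With GFP-positive replicate 1 left out 4 podocyte genes were called lower in place of 2, Ptpro (-1.81, then -3.00) being 1 of those added. Podxl, shared with endothelium, was -2.08, and -1.33 without GFP-negative replicate 1. Thsd7a (1.62), the 1 podocyte gene called higher, lost its call without GFP-positive replicate 1 (0.90). Of 8 urothelial genes tested, Upk3a (4.37) and Trp63 (1.63) were called higher, at most 2.32 and 12.6 CPM, or 4 genes with DESeq2, library totals only, no low-count filter or GFP-positive replicate 1 left out, and neither was called without GFP-positive replicate 2 (3.06 and 1.15). Upk3a also lost its call without GFP-negative replicate 1 (3.60) and was 5.78 without GFP-negative replicate 2 and 5.01 without GFP-positive replicate 1.

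**Figure D2:**
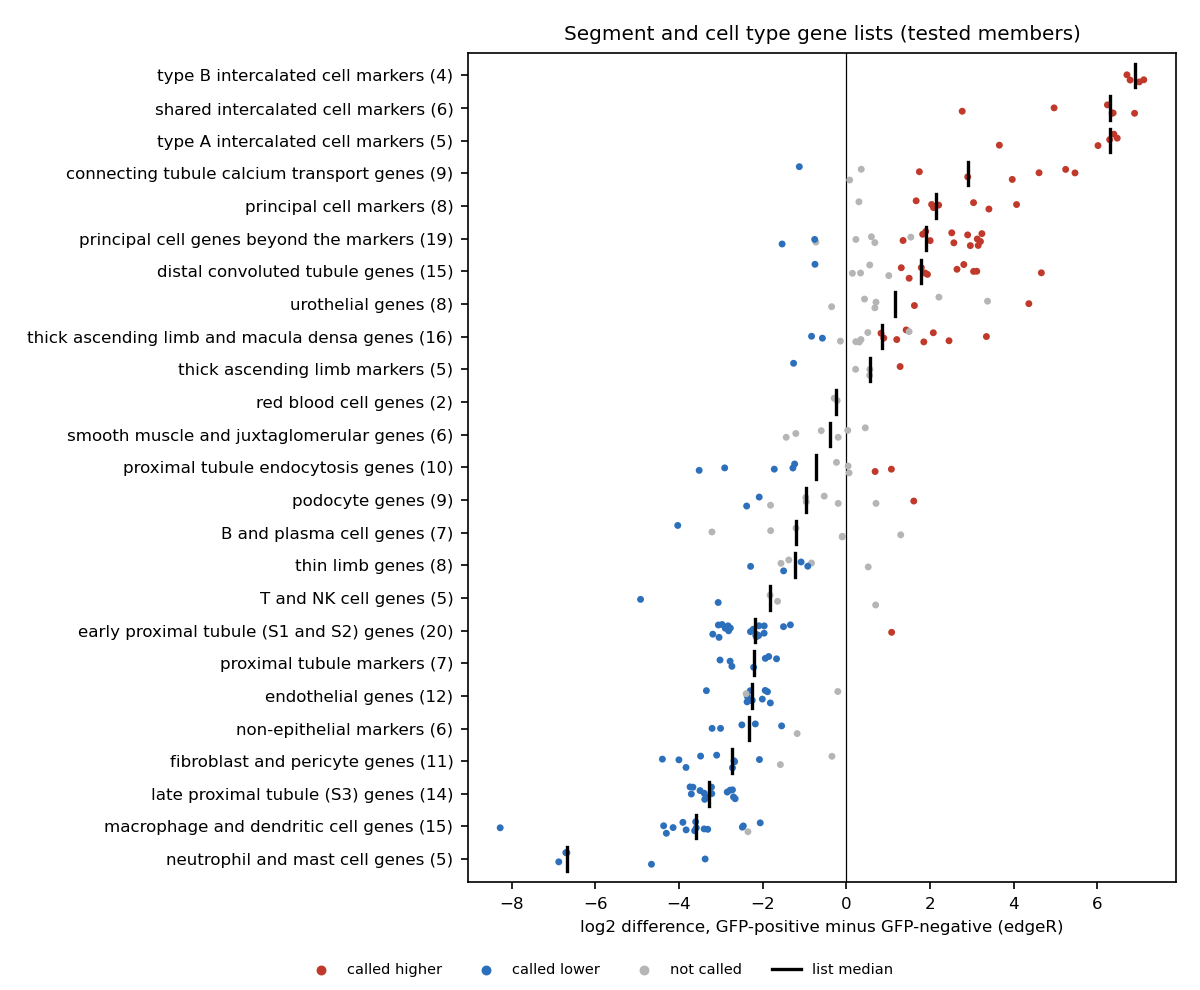
Log2 differences (GFP-positive minus GFP-negative, edgeR) of the tested members of the marker, segment and cell lists, with the number tested in brackets. Each point is 1 gene, red where called higher, blue where called lower and grey where not called, and the black bar is the list median; intercalated cell markers lie at the top, connecting and distal tubule lists above 0, and proximal tubule and immune lists at the bottom.

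Within the vacuolar proton pump, isoforms moved apart. Of 20 pump genes tested outside the markers, 9 rose, 4 fell and 7 were not called (median 0.67), against 15.2% and 17.3% of all genes. Atp6v0a4, the a4 isoform of the membrane sector used with the B1 subunit in intercalated cells, had 307 and 305 CPM in the GFP-negative and 1047 and 1212 CPM in the GFP-positive samples (1.88 ± 0.19, adjusted p 0.000162, edgeR). Atp6v1a, the catalytic A subunit with no tissue isoform, had 825 and 894 CPM in the GFP-negative and 2004 and 2387 CPM in the GFP-positive samples (1.35 ± 0.20). Atp6v1b2, the widespread B2 isoform, fell, with 371 and 357 CPM in the GFP-negative and 161 and 169 CPM in the GFP-positive samples (-1.14 ± 0.17, adjusted p 0.00110, edgeR). The B1 and B2 isoforms thus went in opposite directions. In the deposited RPKM, which scale counts by transcript length, Atp6v1b1 averaged 5.67 in GFP-negative and 201 in GFP-positive samples, and Atp6v1b2 119.7 and 66.5: the order of the 2 isoforms was reversed between the fractions on this per-length scale.

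Further pump genes changed in both directions. Atp6v1h, a regulatory subunit, rose from 95.6 and 76.6 to 258 and 248 CPM (1.56 ± 0.18). Atp6ap2, the accessory subunit also known as the prorenin receptor, rose from 55.7 and 71.6 to 169 and 211 CPM (1.58 ± 0.20). Atp6v0e2 fell from 23.1 and 28.6 to 9.11 and 9.63 CPM (-1.46 ± 0.25). Tcirg1, the a3 isoform known from osteoclasts and lysosomes, fell by edgeR (-0.94), a call it lost when GFP-negative replicate 1 (-0.80) or GFP-positive replicate 2 (-0.93) was left out, and the pump genes called lower then numbered 2 each time.

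Acid, bicarbonate and ammonia transport genes were often higher in GFP-positive cells. Of 25 tested, 12 rose (48.0%), 5 fell (20.0%) and 8 were not called (median 0.71). Over all genes tested 15.2% were called higher and 17.3% lower, so the share lower was near that of all genes. Beside Rhbg and Slc26a7 the largest rises with more than a few reads included 2 genes chosen here after their values were seen. Rhcg, the apical ammonia channel partner of Rhbg, had 15.0 and 17.6 CPM in the GFP-negative and 350.2 and 548 CPM in the GFP-positive samples (4.79 ± 0.27), and Car12, a membrane-bound carbonic anhydrase, had 169 and 105 CPM in the GFP-negative and 1435 and 1419.9 CPM in the GFP-positive samples (3.38 ± 0.27). Both stood in both GFP-positive samples above both GFP-negative samples. Slc4a4, the sodium-bicarbonate cotransporter of the basolateral membrane of the proximal tubule, had 2185 and 1998 CPM in the GFP-negative and 587 and 356 CPM in the GFP-positive samples (-2.15 ± 0.27), and the carbonic anhydrase gene Car14 had 35.6 and 37.1 CPM in the GFP-negative and 9.78 and 6.97 CPM in the GFP-positive samples (-2.12 ± 0.26). Slc26a1, a sulfate and oxalate exchanger, fell also (-2.33 ± 0.29).

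Intercalated cells move pumps between vesicles and the membrane, and genes of vesicle traffic and of proton pump assembly rose in 10 of 30 cases, with 4 called lower and 16 not called (median 0.45). Tbc1d24, another protein with a TLDc domain, had 13.2 and 13.1 CPM in the GFP-negative and 60.9 and 63.7 CPM in the GFP-positive samples (2.24 ± 0.20, adjusted p 9.96e-05, edgeR). Dmxl1, a rabconnectin that takes part in pump assembly, had 498 and 622 CPM in the GFP-negative and 2156 and 2715 CPM in the GFP-positive samples (2.12 ± 0.23). Syt7, a calcium sensor of exocytosis, had 2.83 and 0.995 CPM in the GFP-negative and 34.8 and 22.6 CPM in the GFP-positive samples (3.89; 4.84 with GFP-negative replicate 1 left out). The groups did not overlap in any of the 3. Vamp8 (-0.87 ± 0.18), Exoc6 (-0.91 ± 0.18) and Stx2 (-1.27) fell, the last not being called without GFP-positive replicate 2 (-1.10), when 2 genes of the list were called lower.

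Nuclear genes of the respiratory chain and ATP synthase did not rise. Of 73 tested, 18 (24.7%) were called lower, against 17.3% of all genes tested (median -0.43), and 0 were called higher by edgeR, by DESeq2 or at an unadjusted p under 0.05, where 15.2% of all genes tested were called higher. The member with the most reads, Atp5b, the beta subunit of the ATP synthase, had 5949 and 6815 CPM in the GFP-negative and 8428 and 8456 CPM in the GFP-positive samples (0.40 ± 0.23, not called). Uqcr10, a small subunit of complex III, had 180.1 and 204 CPM in the GFP-negative and 73.1 and 116 CPM in the GFP-positive samples (-1.02 ± 0.23, adjusted p 0.0102, edgeR). The median level of the 73 genes was 94.7 and 110.9 CPM in the GFP-negative and 57.9 and 79.6 CPM in the GFP-positive samples, so the lower GFP-positive sample was replicate 1. Their sum, of which Atp5b is a large part, was not lower. It was 16630 and 18610 CPM in the GFP-negative and 16860 and 18760 CPM in the GFP-positive samples. The number called lower was 12 with library totals only, 26 with DESeq2 and 32 with the replicate block. It also moved with the sample left out, so the share of 24.7% is not a stable one. The list median varied with the samples used. It was -0.502 and -0.334 without GFP-negative replicates 1 and 2, and -0.256 and -0.686 without GFP-positive replicates 1 and 2. Ndufa2 (-1.03) and Ndufb4 (-1.21), small subunits of complex I, were not called without GFP-positive replicate 1 (-0.75 and -1.04).

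Regulators of mitochondrial biogenesis included rises. Of 10 genes, 3 rose and 7 were not called (median -0.02). Ppargc1a, a coactivator that drives mitochondrial biogenesis, had 291 and 339 CPM in the GFP-negative and 662 and 750.2 CPM in the GFP-positive samples (1.16 ± 0.19, adjusted p 0.00187, edgeR). Its relative Ppargc1b had 11.5 and 11.6 CPM in the GFP-negative and 37.6 and 30.6 CPM in the GFP-positive samples (1.56 ± 0.23), and their partner receptor gene Esrrg had 127 and 162 CPM in the GFP-negative and 305 and 305 CPM in the GFP-positive samples (1.08 ± 0.18). The samples of a group were close to each other for all 3 genes, and the groups did not overlap. Nrf1 (0.05 ± 0.25), Esrra (-0.09 ± 0.32), Gabpa (-0.09 ± 0.16) and Tfam (-0.16 ± 0.22) were not called. Esrrb (0.75) was not called either, but was with DESeq2 (0.74), with library totals only (0.84), with no low-count filter (0.75) and with GFP-positive replicate 2 left out (1.05).

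In the citric acid cycle 4 of 17 genes (23.5%) were called higher and 2 (11.8%) lower, against 15.2% and 17.3% of all genes tested (median 0.03). Pcx, pyruvate carboxylase, fell from 61.2 and 57.8 to 23.4 and 22.0 CPM (-1.39 ± 0.19), and Suclg1 from 130.5 and 155 to 61.0 and 82.6 CPM (-0.99 ± 0.20). The higher calls were small, and all were lost in the less powerful fits with either GFP-negative replicate left out. Some were also lost with either GFP-positive replicate left out, and limma called 0 genes of the list higher on either RPKM scale. Cs, citrate synthase, was 0.72, and 0.74 and 0.71 without GFP-negative replicates 1 and 2.

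Most glycolysis genes were not called. Of 19, 6 rose (31.6%, against 15.2% of all genes tested), 1 fell and 12 were not called (median 0.18). Hk1, hexokinase 1, had 57.5 and 57.2 CPM in the GFP-negative and 190.2 and 189 CPM in the GFP-positive samples (1.72 ± 0.16, adjusted p 0.000120, edgeR). Pkm, pyruvate kinase of muscle type, had 76.6 and 65.4 CPM in the GFP-negative and 178 and 219 CPM in the GFP-positive samples (1.49 ± 0.19), and the glucose transporter gene Slc2a1 had 149 and 118 CPM in the GFP-negative and 329 and 375 CPM in the GFP-positive samples (1.40 ± 0.19). Ldhb, a lactate dehydrogenase subunit, rose too (0.94 ± 0.17). Both GFP-positive samples were above both GFP-negative samples for each. Hk3 (-3.62), at most 3.07 CPM, lost its lower call without GFP-negative replicate 1 (-1.98) and without either GFP-positive replicate (-2.96 and -5.00), and was -4.36 without GFP-negative replicate 2.

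Making of glucose and breakdown of fructose, functions of the proximal tubule in the kidney, were lower in 10 of 11 genes (median -2.42). Pck1, the entry enzyme of gluconeogenesis, had 1186 and 1582 CPM in the GFP-negative and 185 and 169 CPM in the GFP-positive samples (-2.97 ± 0.22, adjusted p 5.71e-05, edgeR). Fbp1, fructose bisphosphatase, had 416 and 518 CPM in the GFP-negative and 75.0 and 58.0 CPM in the GFP-positive samples (-2.81 ± 0.21). G6pc, glucose-6-phosphatase, had 347 and 236 CPM in the GFP-negative and 75.3 and 43.8 CPM in the GFP-positive samples (-2.29 ± 0.29), and the fructokinase gene Khk 227 and 267 CPM in the GFP-negative and 40.0 and 37.5 CPM in the GFP-positive samples (-2.67 ± 0.18). The groups did not overlap in any of these. Pck1, Fbp1 and G6pc are also counted among the early proximal tubule genes above. Pck2, the mitochondrial form of the entry enzyme, was the 1 gene not called, at 7.87 and 5.62 and 7.77 and 9.58 CPM (0.36 ± 0.34).

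Fatty acid oxidation was lower in 12 of 24 genes (50.0%) and higher in 4 (16.7%), with a median of -0.67. The share higher was near the 15.2% of all genes tested. Limma called 9 lower and 0 higher on either RPKM scale. Ehhadh, an enzyme of peroxisomal oxidation, had 548 and 668 CPM in the GFP-negative and 110.2 and 78.5 CPM in the GFP-positive samples (-2.69 ± 0.23). Acadm, the medium-chain dehydrogenase of mitochondria, had 943 and 943 CPM in the GFP-negative and 258 and 208 CPM in the GFP-positive samples (-2.02 ± 0.20). Most of the higher calls were lost in each of the less powerful fits with a sample left out. Among them, Acsl1 (0.73) was 0.66 without GFP-negative replicate 2 and 0.52 without GFP-positive replicate 1. Of 6 ketone body genes 5 fell and 1 was not called (median -1.23): Bdh1 (-1.51 ± 0.20), Acat1 (-1.30 ± 0.18) and the monocarboxylate transporter gene Slc16a1 (-1.92 ± 0.27) among them.

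Cholesterol synthesis was lower in 11 of 21 genes and higher in 2 (median -1.04). Cyp51, lanosterol demethylase, had 617 and 765 CPM in the GFP-negative and 112 and 102 CPM in the GFP-positive samples (-2.69 ± 0.20, adjusted p 5.30e-05, edgeR). Sqle, squalene epoxidase, had 245 and 366 CPM in the GFP-negative and 62.8 and 52.1 CPM in the GFP-positive samples (-2.41 ± 0.23), and Mvd, mevalonate decarboxylase, 21.1 and 28.2 CPM in the GFP-negative and 4.46 and 3.64 CPM in the GFP-positive samples (-2.60 ± 0.29). Fdps (1.38), an early enzyme, was called higher but lost the call without GFP-positive replicate 2 (1.04) and by limma on either RPKM scale (2.00 and 2.93), and Pmvk (0.83) lost it by limma and without either GFP-negative replicate (0.85 and 0.80) or GFP-positive replicate 1 (0.64).

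Amino acid transporters changed in both directions: 5 of 19 rose and 10 fell (median -1.54). Slc43a2, a carrier of large neutral amino acids, had 115 and 103 CPM in the GFP-negative and 428 and 402 CPM in the GFP-positive samples (1.93 ± 0.17). Slc1a5, the glutamine carrier ASCT2, had 17.2 and 15.3 CPM in the GFP-negative and 58.5 and 51.4 CPM in the GFP-positive samples (1.76 ± 0.21), and Slc6a12, a betaine carrier, 11.5 and 6.90 CPM in the GFP-negative and 25.8 and 37.9 CPM in the GFP-positive samples (1.79 ± 0.32). Slc3a1, the heavy chain of the apical cystine carrier of the proximal tubule, went from 561 and 693 to 92.8 and 65.9 CPM (-2.98 ± 0.23), and Slc6a20b from 246 and 374 to 39.0 and 32.5 CPM (-3.11 ± 0.24). The groups did not overlap in any of these 5 genes.

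Organic ion and drug transporters fell in 18 of 21 cases and rose in 2 (median -2.58). Abcc2, an apical export pump, had 905 and 992 CPM in the GFP-negative and 158 and 83.4 CPM in the GFP-positive samples (-2.98 ± 0.30), and Slc13a2, the citrate carrier, 42.2 and 48.3 CPM in the GFP-negative and 3.87 and 5.33 CPM in the GFP-positive samples (-3.30 ± 0.27). Abcc4, an export pump for cyclic nucleotides and urate, rose instead, from 51.8 and 43.6 to 96.8 and 106 CPM (1.09 ± 0.18, adjusted p 0.00203, edgeR). Genes of detoxification and glutathione followed the same side, with 18 of 26 lower and 2 higher, or 1 higher with GFP-positive replicate 2 left out (median -1.61). Cyp2j5, a cytochrome P450 of the proximal tubule, had 1825 and 2313 CPM in the GFP-negative and 303 and 244 CPM in the GFP-positive samples (-2.92 ± 0.23). Gsta4, a glutathione transferase, rose (1.85 ± 0.35). Proximal tubule markers moved with these lists, from 15980.0 and 16400.0 CPM in sum to 3065 and 1953 CPM, and the part of this in the falls was not tested.

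Lysosome genes fell in 15 of 29 cases and rose in 5 (median -0.72). Glb1, beta-galactosidase, had 217 and 232 CPM in the GFP-negative and 46.9 and 39.0 CPM in the GFP-positive samples (-2.39 ± 0.18, adjusted p 6.06e-05, edgeR). Lamp2, a protein of the lysosomal membrane, had 1385 and 1634 CPM in the GFP-negative and 598 and 664 CPM in the GFP-positive samples (-1.26 ± 0.20). Hexa, a subunit of hexosaminidase, rose, with 15.2 and 9.13 CPM in the GFP-negative and 34.9 and 68.4 CPM in the GFP-positive samples (2.09 ± 0.37), and so did Cln3, from 21.6 and 22.5 to 47.8 and 57.0 CPM (1.25 ± 0.20). Lamp2 was the member of the list with the most reads, and its groups, like those of the other 3 genes, did not overlap.

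Hormone, purine and metabolite receptors differed strongly in both directions. Of 40 tested, 16 rose, 11 fell and 13 were not called (median 0.36), and the number lower was 7 without GFP-negative replicate 1 and 6 without GFP-positive replicate 2. Beside Avpr1a and Oxgr1, the adhesion receptor gene Gpr56 rose from 286 and 334 to 555 and 642 CPM (0.95 ± 0.19). Sucnr1, the succinate receptor, went from 34.9 and 27.8 to 3.01 and 3.06 CPM (-3.37 ± 0.27, adjusted p 7.40e-05, edgeR), in the direction opposite to Oxgr1, the receptor of another citric acid cycle metabolite. Adra2b, an alpha-2 adrenoceptor, went from 252 and 387 to 30.3 and 30.2 CPM (-3.40 ± 0.24), and P2ry6, a receptor for uridine diphosphate, from 8.22 and 4.42 to 0.269 and 0.501 CPM (-4.03 ± 0.61).

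Renin-angiotensin and kallikrein-kinin genes changed in both directions. Of 14 genes of both systems tested, 6 rose, 7 fell and 1 was not called (median -0.65). Klk1, tissue kallikrein, which releases kinins in the connecting tubule, had 224 and 275 CPM in the GFP-negative and 3538 and 4274 CPM in the GFP-positive samples (3.97 ± 0.25, adjusted p 4.31e-05, edgeR). With Klkb1, both kallikreins were thus higher. Agt, angiotensinogen, had 41.3 and 60.9 CPM in the GFP-negative and 4.54 and 5.44 CPM in the GFP-positive samples (-3.36 ± 0.28). Ace, the angiotensin-converting enzyme, had 271 and 345 CPM in the GFP-negative and 49.1 and 33.3 CPM in the GFP-positive samples (-2.90 ± 0.24). Agt and Ace were each lower in both GFP-positive samples. The kinin receptor gene Bdkrb2 (3.05), at most 3.63 CPM, was called only with GFP-negative replicate 2 and both GFP-positive samples in the fit (2.24, 2.38 and 3.51 without them in turn, and 5.42 without GFP-negative replicate 1).

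Among transcription factors of nephron and collecting duct, 19 of 41 rose and 9 fell (median 0.67). Tfap2a, an AP-2 factor, had 4.03 and 4.80 CPM in the GFP-negative and 34.4 and 55.8 CPM in the GFP-positive samples (3.35 ± 0.31). Maf, a leucine zipper factor, had 183 and 157 CPM in the GFP-negative and 21.0 and 19.0 CPM in the GFP-positive samples (-3.09 ± 0.19, adjusted p 4.31e-05, edgeR). Hnf4g fell from 20.8 and 28.0 to 4.43 and 2.66 CPM (-2.78 ± 0.34) and Irx3 from 4.69 and 6.67 to 1.18 and 0.871 CPM (-2.46 ± 0.50). Tfcp2l1 and Gata3, given with the principal cell genes, were the other 2 largest rises of the list.

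The Hox genes, transcription factors that mark position along the body axis, differed by cluster. Of 30 tested, 11 rose, 3 fell and 16 were not called (median 0.64), and 9 had too few reads. In the Hoxd cluster 5 of 7 rose (median 1.80) and in the Hoxb cluster 6 of 8 rose (median 1.07), and the other members were not called. In the Hoxa cluster 3 of 9 fell and 6 were not called (median -0.96). In the Hoxc cluster 0 of 6 were called by edgeR, by DESeq2 or at an unadjusted p under 0.05 (median 0.20). Hoxd9 had 18.9 and 19.9 CPM in the GFP-negative and 104 and 92.0 CPM in the GFP-positive samples (2.34 ± 0.19, adjusted p 6.85e-05, edgeR), and Hoxd8 had 117 and 97.9 CPM in the GFP-negative and 351 and 399 CPM in the GFP-positive samples (1.80 ± 0.18). Hoxa10 had 40.1 and 42.3 CPM in the GFP-negative and 8.65 and 9.74 CPM in the GFP-positive samples (-2.16 ± 0.22, adjusted p 0.000192, edgeR), and Hoxa9 had 24.2 and 33.1 CPM in the GFP-negative and 8.65 and 6.99 CPM in the GFP-positive samples (-1.87 ± 0.27). Members of 1 paralog group, Hoxa9 and Hoxd9, thus stood on opposite sides, with no overlap of the groups in either. Hoxd3 (2.21 ± 0.23) and Hoxd4 (1.86 ± 0.25) rose as well. Hoxa5 (-0.98) lost its call without replicate 2 of either group (-0.76 with the GFP-negative and -0.82 with the GFP-positive sample left out) and was 0.01 on the log2(RPKM + 1) scale.

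**Figure D3:**
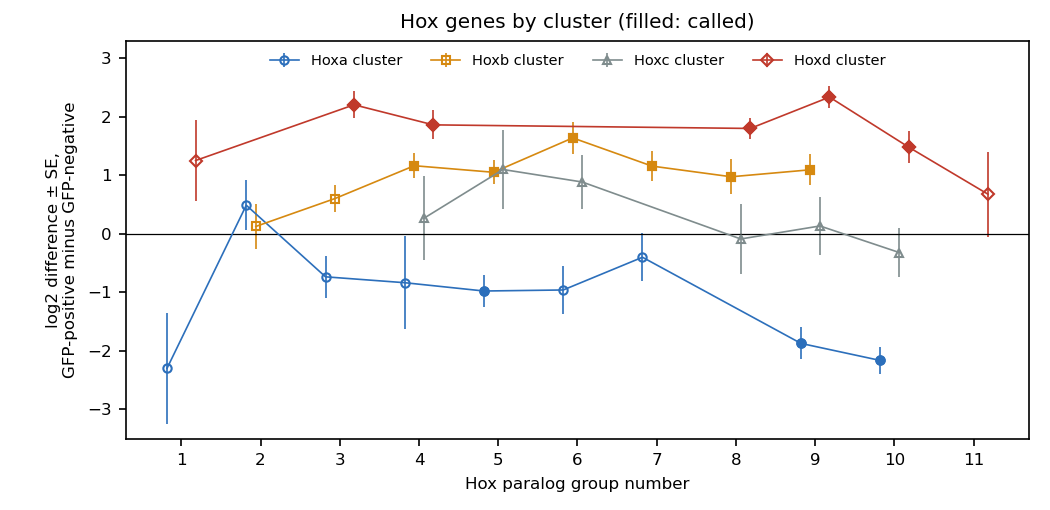
Log2 difference ± SE (GFP-positive minus GFP-negative, edgeR) of the 30 Hox genes tested against their paralog group number, with 1 colour and marker per cluster and filled markers for called genes. The called Hoxd and Hoxb genes lie above 0 and the 3 called Hoxa genes, between -2.16 and -0.98, below 0.

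Claudins, the proteins that set which ions pass between cells, rose in 6 cases and fell in 6 of 17 tested. Cldn8, a claudin of the collecting duct, had 103 and 107 CPM in the GFP-negative and 605 and 989 CPM in the GFP-positive samples (2.93 ± 0.26), and Cldn7 had 10.8 and 10.2 CPM in the GFP-negative and 27.7 and 37.4 CPM in the GFP-positive samples (1.64 ± 0.25). Cldn1 had 71.8 and 87.6 CPM in the GFP-negative and 8.87 and 7.92 CPM in the GFP-positive samples (-3.25 ± 0.22, adjusted p 4.68e-05, edgeR). The count of claudins called lower was 3 without GFP-positive replicate 2. Keratin, cadherin and adhesion genes rose in 12 of 23 cases and fell in 4 (median 0.76). Krt7, a keratin of duct epithelia, had 15.9 and 14.3 CPM in the GFP-negative and 98.7 and 109 CPM in the GFP-positive samples (2.78 ± 0.19), and Krt23 1.34 and 1.05 CPM in the GFP-negative and 12.8 and 21.1 CPM in the GFP-positive samples (3.82 ± 0.39). Cd24a had 712 and 542 CPM in the GFP-negative and 1170.1 and 1487 CPM in the GFP-positive samples (1.08 ± 0.22), and the groups did not overlap in these genes.

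Potassium channel genes rose in 6 of 19 cases and fell in 4 (median 0.15). Kcnq1, a voltage-gated channel, had 7.87 and 7.28 CPM in the GFP-negative and 70.6 and 96.5 CPM in the GFP-positive samples (3.46 ± 0.24). Kcnk5, a background potassium channel of the proximal tubule, had 146 and 184 CPM in the GFP-negative and 19.3 and 18.1 CPM in the GFP-positive samples (-3.14 ± 0.20), and Kcnj15, an inward rectifier, had 2207 and 2334 CPM in the GFP-negative and 483 and 287 CPM in the GFP-positive samples (-2.56 ± 0.28). Of 19 chloride channels and cation-chloride cotransporters, 4 rose (21.1%) and 3 fell (15.8%), near the 15.2% and 17.3% of all genes tested (median 0.045). Cftr, the cyclic AMP-gated chloride channel, had 38.6 and 31.2 CPM in the GFP-negative and 10.4 and 6.07 CPM in the GFP-positive samples (-2.08 ± 0.31). The chloride channel gene Clcn2 also fell (-1.53 ± 0.27). Of 11 genes of the sodium pump and its FXYD partners, 1 was called higher (9.09%) and 2 lower (18.2%), also near those shares, and the number higher was 0 without replicate 1 of either group and 2 with DESeq2 or without GFP-negative replicate 2. The beta subunit gene Atp1b1 was called higher (0.74), but not without either GFP-negative replicate (0.73 and 0.74) or GFP-positive replicate 1 (0.62).

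Growth factor ligands and receptors rose in 13 of 36 cases and fell in 10 (median -0.05), with 6 lower without GFP-positive replicate 1. Sfrp1, a secreted Wnt inhibitor, had 114 and 104 CPM in the GFP-negative and 1029 and 833 CPM in the GFP-positive samples (3.09 ± 0.21, adjusted p 4.68e-05, edgeR). Btc, betacellulin, a ligand of the EGF receptor family, had 11.7 and 11.1 CPM in the GFP-negative and 54.1 and 82.3 CPM in the GFP-positive samples (2.57 ± 0.25), while Nrg1, another ligand of that family, went from 21.5 and 18.5 to 6.88 and 5.20 CPM (-1.73 ± 0.28). Fgfr3 fell from 52.6 and 44.0 to 12.8 and 15.1 CPM (-1.79 ± 0.22). Dkk3 (4.06) was high in GFP-positive replicate 1 above all, with 6.28 and 5.53 CPM in the GFP-negative and 154 and 43.5 CPM in the GFP-positive samples, and was 2.85 without that sample and 4.70 without GFP-positive replicate 2.

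Genes of the primary cilium were mostly not called: of 40 tested, 8 rose (20.0%), 4 fell (10.0%) and 28 were not called (median 0.18), shares near the 15.2% and 17.3% of all genes tested, and the number called higher was 4 without either GFP-negative replicate and 3 without GFP-positive replicate 1. Ift140, of the transport machinery inside the cilium, had 11.6 and 11.3 CPM in the GFP-negative and 23.2 and 26.6 CPM in the GFP-positive samples (1.12 ± 0.24), and Ift46 rose as well (1.12 ± 0.23). Tmem237, of the zone at the base of the cilium, had 28.4 and 20.5 CPM in the GFP-negative and 7.74 and 8.97 CPM in the GFP-positive samples (-1.55 ± 0.27), and Tulp3, which brings receptors into the cilium, had 63.6 and 63.5 CPM in the GFP-negative and 29.7 and 26.6 CPM in the GFP-positive samples (-1.17 ± 0.19). Pkhd1, the gene of recessive polycystic kidney disease, had the most reads of the list and was not called (0.24 ± 0.23).

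Epithelial defence genes included several rises that were present in both GFP-positive samples and larger in replicate 2. Of 23 tested, 7 rose, 5 fell and 11 were not called (median -0.39). Defb1, beta-defensin 1, had 127 and 121 CPM in the GFP-negative and 612 and 1308 CPM in the GFP-positive samples (2.95; 2.30 with GFP-positive replicate 2 left out). Muc20, a membrane mucin, had 45.9 and 51.5 CPM in the GFP-negative and 425 and 1096 CPM in the GFP-positive samples (3.97; 3.13 with that sample left out), and Muc1 had 21.1 and 31.4 CPM in the GFP-negative and 86.4 and 204 CPM in the GFP-positive samples (2.47; 1.72). Spp1, osteopontin, was higher in GFP-positive replicate 1 instead, with 518 and 606 CPM in the GFP-negative and 2938 and 1988 CPM in the GFP-positive samples (2.13 ± 0.25). The complement gene C3 fell from 36.0 and 23.4 to 6.93 and 5.14 CPM (-2.30 ± 0.31).

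Antigen presentation genes fell in 6 of 13 cases, with 7 not called (median -1.05), and chemokines and cytokines fell in 13 of 23 cases with 1 called higher. B2m, the light chain of class I molecules, had 646 and 592 CPM in the GFP-negative and 272 and 325 CPM in the GFP-positive samples (-1.05 ± 0.19, adjusted p 0.00303, edgeR). The class II gene H2-Ab1 had 214 and 77.9 CPM in the GFP-negative and 19.7 and 15.5 CPM in the GFP-positive samples (-3.05; -2.15 with GFP-negative replicate 1 left out). Cx3cl1 (0.61), fractalkine, was the chemokine called higher, and it lost the call whichever sample was left out (0.52, 0.70, 0.53 and 0.66). The macrophage list moved with these genes, and its part in them was not tested.

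Genes that respond to the handling of cells showed no single direction. Of 21 immediate early genes, 7 rose (33.3%) and 5 fell (23.8%), against 15.2% and 17.3% of all genes tested (median 0.24). Klf4 went from 94.0 and 70.0 to 17.1 and 16.4 CPM (-2.29 ± 0.22, adjusted p 0.000118, edgeR), and Myc from 28.8 and 24.7 to 11.5 and 12.0 CPM (-1.18 ± 0.23). The calls higher numbered 0 without GFP-negative replicate 2 and 4 without GFP-positive replicate 2, and the calls lower 3 without GFP-negative replicate 1. Egr1 (0.87) was among those lost without either of the first 2 samples (0.85 and 0.60). Of 15 heat shock genes, 1 was called higher (6.67%) and 4 lower (26.7%), with a median of 0.05. Among those lower were the mitochondrial chaperone genes Hspe1 (-1.62 ± 0.20) and Hspd1 (-1.02 ± 0.18). The higher call and some of the lower calls were lost in fits with a sample left out. The list median then lay between -0.041 (without GFP-negative replicate 1) and 0.152 (without GFP-positive replicate 1). Of 17 cell division genes, 2 were called lower (11.8%, against 17.3% of all genes tested). None was called higher by edgeR, by DESeq2 or at an unadjusted p under 0.05 (1 with the replicate block). Levels were low, Mki67 having 14.9 and 5.12 CPM in the GFP-negative and 1.07 and 3.32 CPM in the GFP-positive samples (-2.18; not called without GFP-negative replicate 1 at -1.22 or GFP-positive replicate 1 at -1.62, and -3.21 without GFP-positive replicate 2).

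Cytosolic ribosomal protein genes were lower or not called, like those of the respiratory chain. Of 53 tested, 18 fell (34.0%, against 17.3% of all genes tested) and 35 were not called (median -0.72), and 0 were called higher by edgeR, by DESeq2 or at an unadjusted p under 0.05. Rps25 had 84.2 and 73.2 CPM in the GFP-negative and 25.0 and 38.8 CPM in the GFP-positive samples (-1.30 ± 0.24), and Rps19 had 20.2 and 20.6 CPM in the GFP-negative and 5.70 and 9.00 CPM in the GFP-positive samples (-1.47 ± 0.30, adjusted p 0.00619, edgeR). Rpl4, the member with the most reads, had 577 and 449.8 CPM in the GFP-negative and 434 and 526 CPM in the GFP-positive samples (-0.10 ± 0.20, not called). The median level of the list was 20.2 and 20.6 CPM in the GFP-negative and 9.35 and 13.2 CPM in the GFP-positive samples. The number lower was 9 without GFP-negative replicate 2, 5 without GFP-positive replicate 1 and 11 with library totals only. Within the GFP-positive pair, ribosomal genes were higher in replicate 2 by a median log2 of 0.55 and respiratory chain genes by 0.455, where the median over all genes was 0.006, so both lists varied together inside 1 group. Ribosomal protein genes have many processed copies in the mouse genome, and the sources used here do not say how reads that align to several places were counted.

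**Figure D4:**
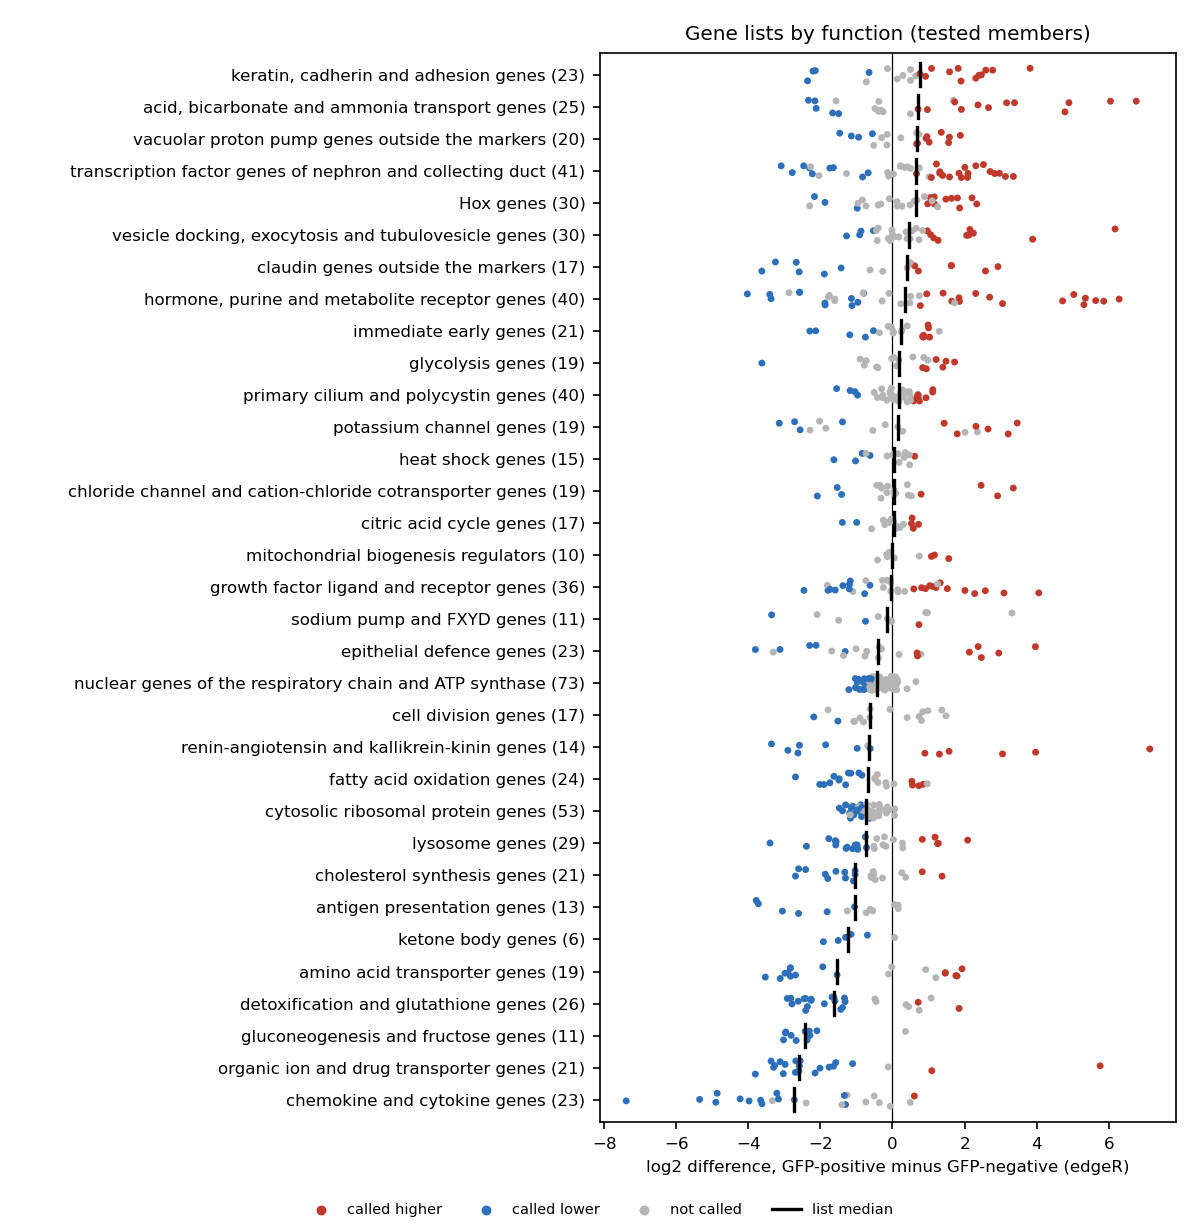
Log2 differences (GFP-positive minus GFP-negative, edgeR) of the tested members of the function lists, with the number tested in brackets; points and bars as in the plot of segment lists. Lists of gluconeogenesis, organic ion transport and chemokines lie lowest, lists with points far to both sides include receptors and acid-base transport, and Ccl7, without a read in either GFP-positive sample, is drawn at its fitted value, which is no bound.

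The genes called in the GFP comparison were then looked up in the single cells of the series, as a description without a test, since no animal is named for the cells. Of 1580 genes called higher whose highest mean over the authors' 5 cell types was at least 10 TPM, 21.9% had that highest mean in type A cells, 20.1% in type B cells, 35.2% in principal cells, 10.5% in proximal tubule cells and 12.3% in non-epithelial cells. Over all 9600 tested genes of that level the shares were 14.0%, 18.6%, 24.5%, 20.9% and 22.0%. Of 1781 genes called lower, 41.4% were highest in proximal tubule cells and 29.0% in non-epithelial cells. Genes called higher were therefore most often highest in principal cells, and read the other way, 25.7% of the genes highest in type A cells and 23.6% of those highest in principal cells were called higher. With the median in place of the mean, type B cells led, with 37.5% of 328 genes called higher, but they also led among all genes, with 40.9% of 1833. The groups hold 87 type A, 23 type B, 74 principal, 19 proximal tubule and 32 non-epithelial cells.

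In the microdissected tubules, 1344 genes called higher had a median of at least 10 TPM in cortical collecting duct or cortical thick ascending limb. Of these, 40.9% were more than 2-fold higher in the 11 collecting ducts and 9.45% more than 2-fold higher in the 8 thick limbs, on the log2(TPM + 1) scale. Among the 7824 tested genes of that level the shares were 21.2% and 8.23%, and among 1155 genes called lower 18.6% and 15.2%. Hepacam2 had a median of 300.4 TPM in collecting ducts and 0.295 TPM in thick limbs, and Tldc2 had 510.1 and 0.530 TPM. Both genes, called higher in GFP-positive cells, were near 0 in the thick limbs. The tubules came from 7 mice for the collecting ducts and 6 for the thick limbs by their names, and tubules of 1 mouse are not independent.

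**Figure D5:**
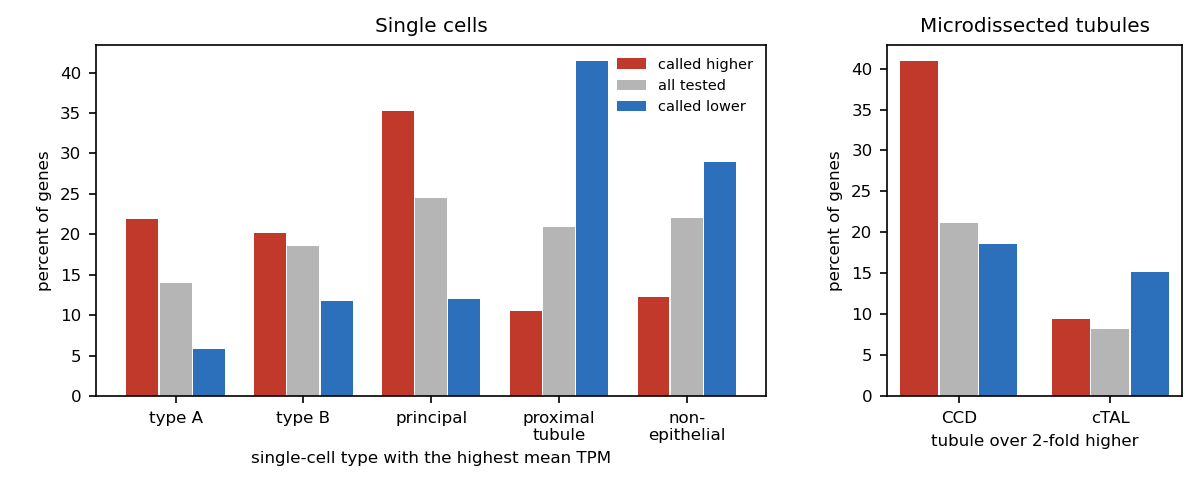
Percent of genes called higher (red), all tested (grey) and called lower (blue) by the single-cell type with the highest mean TPM (left) and by the tubule in which they were more than 2-fold higher (right; CCD, cortical collecting duct; cTAL, cortical thick ascending limb). The bars start at 0, and the red bars exceed the grey ones for type A, type B and principal cells, for CCD (40.9% and 21.2%) and, by less, for cTAL (9.45% and 8.23%).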

How the data were processed

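PolyA RNA of 2 GFP-positive and 2 GFP-negative samples was taken from the authors' deposited table of raw counts per RefSeq gene (mm10, counted with HTSeq by the table's name), from which 5 summary rows were left out; 66.5% to 72.7% of the listed reads fell in no gene and 0.11% to 0.178% were ambiguous. The sources used here do not say whether counting used strand, so a gene and an antisense gene that overlaps it cannot be told apart, and 27 symbols had been turned into dates and name no gene here. The submitters' processing notes name STAR 2.5.1b, RSEM 1.2.31, Seurat and GRCm38.p5 without a role. The authors also deposited RPKM per sample (29732 rows) and TPM of single cells and tubules; both were used as deposited. All matched columns were used (0 unmatched).

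The count test was edgeR 4.0.16 in R 4.3.3 (quasi-likelihood, TMM scaling, filterByExpr by group, no block; biological coefficient of variation 28.3%). DESeq2 1.42.0, other scalings and filters, limma 3.58.1 on log2(RPKM + 1) and log2(RPKM + 0.1) with a mean RPKM of at least 0.5, a replicate block and leaving out each sample were alternatives. The test was also run on simulated counts with less spread and fewer changed genes than these data, so that run does not measure its error rate here. Python 3.11.15, pandas 2.3.3 and matplotlib 3.10.9 made the tables and plots. The deposited RPKM headers name a first and a second experiment, but nothing ties these to the replicate numbers of the counts, so the numbers were not taken to pair the samples.

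The 58 gene lists (1118 entries, 1073 genes) and all members were chosen with earlier results of these data known. Genes named are the 15 per direction with the largest log2 difference among called genes whose groups do not overlap, at a mean of at least 10 CPM and outside the 7 marker lists; per list, up to 3 called members per direction and the member with the most reads; every member of lists of at most 12 genes; and Atp6v1b1. Rhcg and Car12 were chosen after their values were seen. Some genes that the rule names are not reported here. Gene coordinates are those of GENCODE M21 (GRCm38), and promoters those of RefSeq. Depth was 35530885 to 40815091 reads in genes per sample, and PCR copies are not independent molecules.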

Additional observations from a re-analysis of the deposited data

How the results depend on the processing

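Against 5101 genes called by edgeR (2386 higher, 2715 lower), DESeq2 called 5607, RLE size factors 5069, library totals only 4917, no low-count filter 5311, a mean of at least 50 reads 4841 and the replicate block 5897 (2785 higher, 3112 lower); in none of these, of the limma fits or of the fits with a sample left out was a gene called opposite to its edgeR call. The replicate block joins samples that share only a number: deviations of the same number correlated at 0.139 across genes, over 2 pairs. Limma called 1591 genes on log2(RPKM + 1) (720 higher, 871 lower) and 1472 on log2(RPKM + 0.1) (672 higher, 800 lower). Library totals only moved the share of higher calls from 46.8% to 52.1% and the median of all genes by 0.086. Leaving out a sample gave 3616 to 4211 calls, 1562 to 1992 higher and 2054 to 2391 lower, the lowest without GFP-positive replicate 1 in each case. Of 586 called list members and named genes, 420 were called in every edgeR and DESeq2 alternative and 166 lost a call in at least 1: 100 without GFP-positive replicate 1, 94 without GFP-positive replicate 2, 81 and 93 without GFP-negative replicates 1 and 2, 2 with the block and 2 with DESeq2. Of 430 not called, the fit with the replicate block called 71 and DESeq2 52. On log2(RPKM + 1) 255 of the 586 were not called by limma. Differences changed sign for Hoxa5 (0.00 with a pseudocount of 0.1, 0.01 with 1), Cenpe (0.29 with 0.1) and Krt19 (-1.49 with 0.1, -0.29 with 1), all on log2 RPKM, and the cause was not tested. Genes with few reads, such as Upk3a, Hk3 and Bdkrb2, depend most on single samples.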
